A study of Homo sapiens with 6 samples.

Results

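The genes described here are 39 interferon-stimulated genes, a list of well-known targets of interferon signalling that was chosen by name and looked up by symbol in the table of normalized counts. The list was chosen with earlier results of these data known. All 39 of the 39 were among the 23026 human genes of that table. They were measured by RNA sequencing in T98G, an established human glioblastoma cell line, and the cells were either given a lentivirus with a control hairpin (shControl, 3 libraries) or a lentivirus with a hairpin against DYRK1A, a kinase that acts in the nucleus and the cytoplasm (shDYRK1A, 3 libraries). Both groups were transduced, selected with puromycin and left to recover without it before RNA was extracted, so a hairpin, the virus and the selection were shared by all 6 libraries. A constant amount of fruit fly cells (Kc167, Drosophila melanogaster) was added to equal numbers of T98G cells of either condition, and the fly reads set the scale of the normalized counts. The labels do not say whether libraries 1A, 1B and 1C came from separate infections, so the p-values below measure the spread between these libraries. Each group carries the name of 1 hairpin, and what that hairpin does besides lowering DYRK1A cannot be told apart from the loss of DYRK1A.

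Interferons are secreted proteins that cells release when they sense foreign nucleic acid. Type I interferons bind a receptor made of IFNAR1 and IFNAR2, whose kinases JAK1 and TYK2 phosphorylate STAT proteins, among them STAT2, and these join IRF9 in a complex that binds a short promoter element, the interferon-stimulated response element (ISRE). The genes switched on in this way encode sensors of viral RNA, enzymes and binding proteins that block translation or degrade RNA, membrane proteins that hinder entry or release of viruses, and the ubiquitin-like protein ISG15 with its enzymes. Many of them keep a low level of transcription in cells that have met no virus.

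In the DYRK1A-depleted cells most of these genes did not pass the test on the spike-in scale, while most of the 9697 genes tested fell. On that scale a normalized count follows the number of transcripts per cell mixed in. Of the 31 members with enough reads to be tested, 6 fell (IFIT1, EIF2AK2, IFIT5, STAT2, DTX3L and SP110), 1 rose (IRF7) and 24 did not pass the test at an adjusted p below 0.05 (edgeR's quasi-likelihood test, Benjamini-Hochberg adjustment over 9697 genes). Across all genes tested, 63.4% fell and 1.08% rose by the same rule. The median log2 fold change of the members was -0.030 beside -0.40 for all genes, and 26 of the 31 lay above the median of all genes. Set against the human mRNA pool instead (TMM scaling, in which the typical human gene does not change), 25 members rose, 2 fell (IFIT1 and EIF2AK2) and 4 did not pass, where 27.3% of all genes rose and 28.6% fell. On that scale the members' median was 0.38 and that of all genes 0.0019, and the difference between these medians was 0.37 on either scale. A change of scaling shifts all genes nearly alike, so this difference could hardly change with it. None of the 31 members tested passed both an adjusted p of 0.05 and a log2 fold change beyond 0.7 on the spike-in scale. Of all genes tested, 14.3% met that rule downwards and 0.278% upwards. On the TMM scale only IRF7 of the 31 met it, upwards, against 1.25% of all genes upwards and 1.93% downwards. Members under the filter are not in these counts. In the wider fit below, IFI27 met the rule upwards on both scales, and IRF9, IFITM1, OASL and DHX58 on the TMM scale. Since equal numbers of T98G cells were mixed in, a fall on the spike-in scale stands for fewer transcripts per cell mixed. An unequal number of cells at mixing would look the same in bulk RNA and was not tested.

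Within the libraries, human gene counts ran from 33708297 to 42154438, and the scale constants behind the normalized counts from 0.821 to 1.21. DYRK1A itself had normalized counts of 2227, 2234 and 1895 in the shControl libraries and 1482, 1056 and 1285 in the shDYRK1A libraries, in the order 1A, 1B, 1C that is kept throughout. Its log2 fold change was -0.73 ± 0.15 (adjusted p = 5.33e-06) on the spike-in scale and -0.34 ± 0.059 (adjusted p = 5.91e-04) on the TMM scale. The line expressed the mesenchymal glioma genes VIM, CD44 and FN1 at no less than 19136 normalized counts in any library, whereas GFAP, S100B and SOX2 had no row in the table. Of the other glioma genes looked up, TNC had 978 to 1324 and NES only 42.8 to 96.5. Among neuron markers, RBFOX3 had no row and SYT1 reached at most 33.1. SNAP25 went from 394 to 537 in shControl to 175 to 210 in shDYRK1A. Among immune cell markers, AIF1 and CD3E had no row, PTPRC reached at most 7.30 and CD14 at most 44.5, and CSF1R went from 62.3 to 90.8 in shControl to 14.0 to 39.7 in shDYRK1A. Their part in the values below was not tested. Library shControl 1C gave the lowest shControl count for 30 of the 31 members tested, and shDYRK1A 1B the lowest shDYRK1A count for 24. DYRK1A, VIM, CD44 and FN1 were lowest in the same libraries, so this was not particular to the members. The scale constant of shControl 1C was 1.03, beside 0.821 and 0.881 in shControl 1A and 1B. The share of all genes that were lowest in these libraries was not counted. Without shControl 1C, 7 members fell, 1 rose and the median was -0.099, and without shDYRK1A 1B, 5 fell, 1 rose and the median was 0.016.

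To show the element these genes share, promoters of 300 bases (250 before and 50 after the annotated start, RefSeq, GRCh38.p14) were searched. A promoter was matched by symbol for 30 of the 39 members. The others were DHX58, IRF7, IFIT2, OAS2, OASL, IFITM2, UBA7, USP18 and TRIM22. The ISRE letters TTTCNNTTTC, on either strand, were in 20 of the 30 promoters (66.7%), beside 3.65% of all 27305 promoters and 2.94% of the 7594 that belong to genes tested here. The 5 promoters below belong to members the results turn on: IFIT1, IFIT3 and IFIT5 are neighbours of which IFIT1 and IFIT5 fell and IFIT3 did not pass on the spike-in scale, EIF2AK2 fell on both scales, and ISG15 is a member that did not pass the test on the spike-in scale. Capitals mark the ISRE letters.
IFIT1, chr10:89392373-89392672, plus strand: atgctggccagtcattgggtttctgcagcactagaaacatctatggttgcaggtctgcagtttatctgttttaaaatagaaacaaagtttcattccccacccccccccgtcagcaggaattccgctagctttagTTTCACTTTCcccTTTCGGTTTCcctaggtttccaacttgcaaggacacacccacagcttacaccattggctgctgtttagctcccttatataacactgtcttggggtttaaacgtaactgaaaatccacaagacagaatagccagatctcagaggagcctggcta
IFIT3, chr10:89327747-89328046, plus strand: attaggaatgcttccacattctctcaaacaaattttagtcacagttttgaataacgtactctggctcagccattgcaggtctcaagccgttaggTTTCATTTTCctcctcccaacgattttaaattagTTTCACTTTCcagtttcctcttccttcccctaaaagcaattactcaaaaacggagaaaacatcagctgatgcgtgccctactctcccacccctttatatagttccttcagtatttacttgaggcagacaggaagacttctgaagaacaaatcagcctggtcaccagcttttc
IFIT5, chr10:89414318-89414617, plus strand: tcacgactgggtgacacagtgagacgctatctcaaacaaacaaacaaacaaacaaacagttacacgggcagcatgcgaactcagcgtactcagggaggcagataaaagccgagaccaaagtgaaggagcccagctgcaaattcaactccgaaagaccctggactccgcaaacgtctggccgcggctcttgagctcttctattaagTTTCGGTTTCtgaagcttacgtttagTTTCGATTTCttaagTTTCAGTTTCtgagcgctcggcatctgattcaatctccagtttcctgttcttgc
EIF2AK2, chr2:37156931-37157230, minus strand: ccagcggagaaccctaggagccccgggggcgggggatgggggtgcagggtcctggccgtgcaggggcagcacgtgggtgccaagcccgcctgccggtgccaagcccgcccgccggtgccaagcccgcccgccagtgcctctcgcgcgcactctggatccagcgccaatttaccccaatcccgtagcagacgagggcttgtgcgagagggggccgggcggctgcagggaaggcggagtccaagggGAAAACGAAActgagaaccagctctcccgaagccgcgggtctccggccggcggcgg
ISG15, chr1:1013247-1013546, plus strand: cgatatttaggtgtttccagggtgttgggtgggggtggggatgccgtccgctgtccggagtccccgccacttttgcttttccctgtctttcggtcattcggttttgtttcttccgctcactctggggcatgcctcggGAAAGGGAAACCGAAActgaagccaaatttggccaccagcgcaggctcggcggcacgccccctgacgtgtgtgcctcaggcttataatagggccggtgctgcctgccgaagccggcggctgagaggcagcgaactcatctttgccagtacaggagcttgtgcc
The match nearest to the start began 103 bases before it in IFIT1, 122 in IFIT3, 107 in ISG15, 4 in IFIT5 and 6 in EIF2AK2. IFIT1, which fell, and IFIT3, which did not pass the test, each held 2 matches, and IFIT5, which fell, held 3. The 16 tested members with the ISRE letters had a median log2 fold change of -0.045 on the spike-in scale and 0.36 on the TMM scale, and the 8 without had -0.073 and 0.33. The letters of the gamma-activated site, TTCNNNGAA, were in 7 of the 30 (23.3%) against 7.88% of all promoters and 6.22% of those of genes tested here. The 4 tested members with these letters had medians of 0.16 on the spike-in scale and 0.57 on the TMM scale. The 20 without had -0.072 and 0.33. On the TMM scale the values ran from 0.34 to 0.63 with the letters and from -0.28 to 0.65 without. This difference was not tested. The letters CTCGCGAG, the core of the palindrome tied to DYRK1A at promoters, were in 0 of the 30 windows, in 1.06% of all promoters and in 2.34% of those of genes tested here. A match of letters is a description of the window and not a site shown to be bound.

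The IFIT genes encode proteins that bind viral RNA and hinder its translation, and here the family split. IFIT1 and IFIT5 fell on the spike-in scale while IFIT2 and IFIT3 did not pass the test. The 4 genes lie side by side at chr10:89283694-89421001, with IFIT2, IFIT3, IFIT1 and IFIT5 in that order and gaps of 18617, 51574 and 8099 bases. IFIT1, whose product recognises RNA caps that lack a methyl group, had normalized counts of 2039, 1963 and 1713 in the shControl libraries and 1257, 1016 and 1284 in the shDYRK1A libraries. All 3 shDYRK1A libraries lay below all 3 shControl libraries. Its log2 fold change was -0.68 ± 0.15 (adjusted p = 2.70e-05), and -0.28 ± 0.062 (adjusted p = 0.00252) relative to the human mRNA pool. IFIT5 had 1264, 1137 and 1009 in the shControl libraries and 869, 653 and 827 in the shDYRK1A libraries, also without overlap, with -0.54 ± 0.15 (adjusted p = 0.00141) on the spike-in scale and -0.14 ± 0.068 (adjusted p = 0.112) on the TMM scale. IFIT3, the partner that stabilises IFIT1, had 1323, 1083 and 995 in the shControl libraries and 1201, 1047 and 1259 in the shDYRK1A libraries, and its groups overlapped. Its log2 fold changes were 0.045 ± 0.15 (adjusted p = 0.794) and 0.45 ± 0.080 (adjusted p = 5.57e-04) in the same order of scales. For IFIT2 the counts were 567, 450.5 and 433 against 509.5, 373 and 541, and the fold changes -0.025 ± 0.17 (adjusted p = 0.898) and 0.38 ± 0.11 (adjusted p = 0.0131). The TMM call of IFIT2 was lost without shControl 1B (adjusted p = 0.0566) and without shDYRK1A 1C (adjusted p = 0.06). Another gene of that strand covers 8.68% of the exon length of IFIT2.

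**Figure D1:**
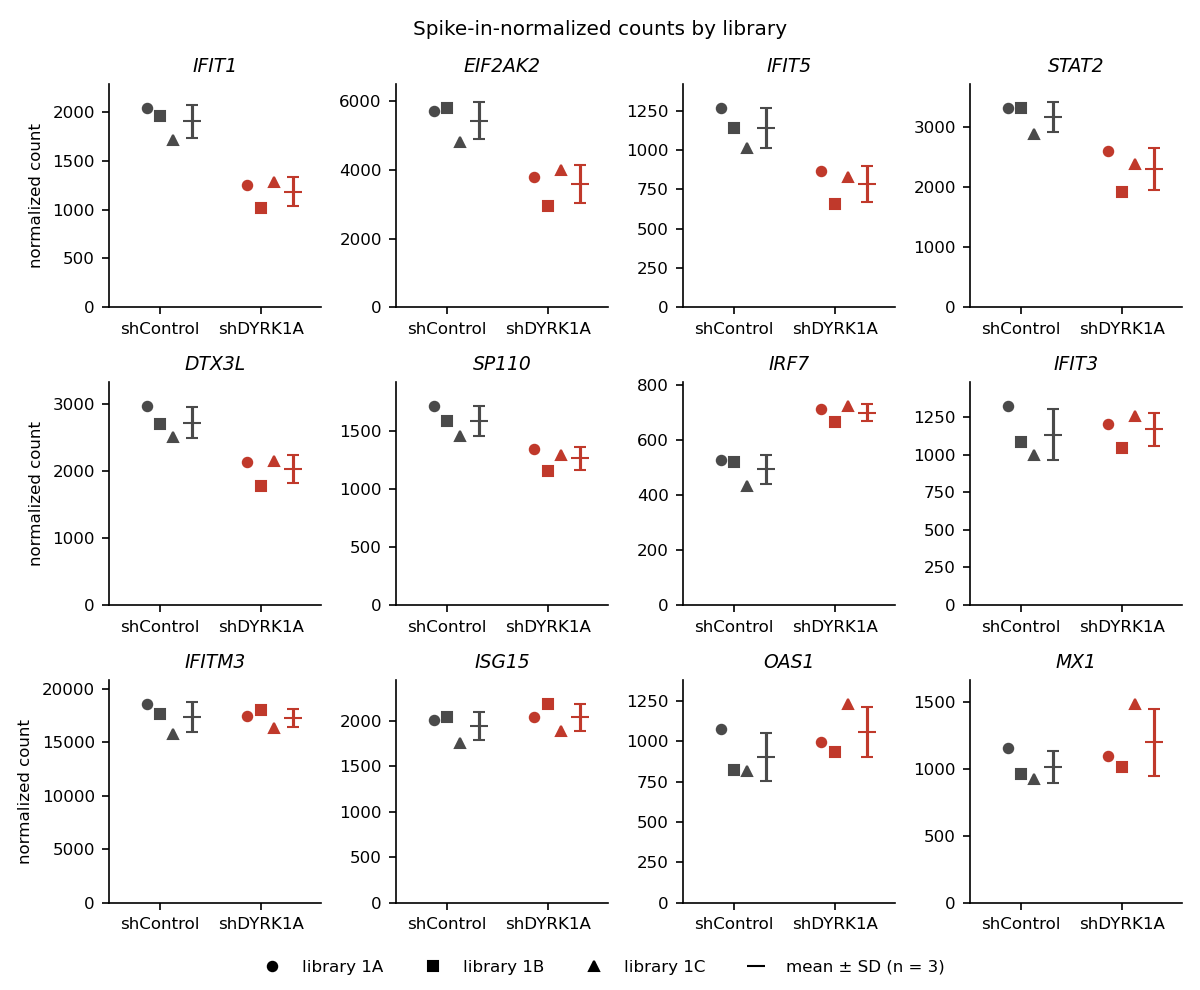
Normalized counts (y axis, from 0, spike-in scale) in the 3 shControl and 3 shDYRK1A libraries of 12 members, with circles, squares and triangles for libraries 1A, 1B and 1C and the mean ± SD beside them. The first 6 panels show the genes that fell and IRF7 the one that rose, with no overlap between groups, while IFIT3, IFITM3, ISG15, OAS1 and MX1 overlap.

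The oligoadenylate synthetases make a messenger that activates RNase L, and EIF2AK2 encodes PKR, the kinase that halts translation when it binds double-stranded RNA. EIF2AK2 fell on both scales and none of the tested OAS genes did. EIF2AK2 had normalized counts of 5714, 5788 and 4802 in the shControl libraries and 3794, 2953 and 3985 in the shDYRK1A libraries, so that its lowest shControl library stood above its highest shDYRK1A library. The log2 fold change was -0.60 ± 0.14 (adjusted p = 6.25e-05) on the spike-in scale and -0.20 ± 0.065 (adjusted p = 0.0203) on the TMM scale. Leaving out shControl 1B, shControl 1C or shDYRK1A 1A ended the TMM call, at adjusted p of 0.0524, 0.0598 and 0.0742. OAS1, OAS3 and OAS2 form a row at chr12:112906777-113011723. OAS1 had 1077, 823 and 815 in the shControl libraries and 999, 938 and 1232 in the shDYRK1A libraries, with 0.22 ± 0.15 (adjusted p = 0.182) on the spike-in scale and 0.63 ± 0.11 (adjusted p = 6.62e-04) on the TMM scale. OAS2 had 1243, 908 and 974 against 1065, 979 and 1394, with 0.14 ± 0.15 (adjusted p = 0.408) and 0.55 ± 0.14 (adjusted p = 0.00557). OAS3, the largest protein of the family, had 3509.7, 2997 and 2788 against 2943, 2537 and 3431, with -0.060 ± 0.14 (adjusted p = 0.705) and 0.35 ± 0.088 (adjusted p = 0.0057). In all 3 the highest shDYRK1A library was 1C and the groups overlapped. Without shDYRK1A 1B, OAS2 and OAS3 lost their TMM call (adjusted p = 0.126 and 0.0892).

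Of the transcription factors of the response, IRF7 rose and STAT2 fell. IRF7, which drives production of type I interferons once it is phosphorylated, had normalized counts of 527, 519 and 431 in the shControl libraries and 712, 663 and 722 in the shDYRK1A libraries. Every shDYRK1A library was above every shControl library. The log2 fold change was 0.51 ± 0.16 (adjusted p = 0.00425) on the spike-in scale and 0.92 ± 0.073 (adjusted p = 1.78e-06) on the TMM scale, the highest of the 31 members on both. STAT2, the subunit that gives the complex with IRF9 its transactivation domain, had 3306, 3306 and 2878 in the shControl libraries and 2604, 1911 and 2385 in the shDYRK1A libraries, with all shDYRK1A libraries lower. Its log2 fold change was -0.46 ± 0.14 (adjusted p = 0.00299), and on the TMM scale -0.062 ± 0.056 (adjusted p = 0.362), which did not pass. IRF1, a factor that also keeps some of these genes active without interferon, had 5020.5, 4347 and 3941 in the shControl libraries and 5536, 4606 and 5045 in the shDYRK1A libraries. Its fold changes were 0.19 ± 0.14 (adjusted p = 0.204) and 0.59 ± 0.052 (adjusted p = 3.38e-06), and the groups overlapped on the spike-in scale. Exons of IRF1 share 22.0% of their bases with genes on the opposite strand, and whether counting used strand is not given in the sources used here.

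PARP9 and DTX3L act as a pair, an inactive ADP-ribosyltransferase and an E3 ubiquitin ligase, and are transcribed divergently from adjacent starts within chr3:122527924-122575203. DTX3L fell on the spike-in scale and PARP9 did not pass. DTX3L had 2968, 2695 and 2506 in the shControl libraries and 2141, 1782 and 2152 in the shDYRK1A libraries, with no overlap. Its log2 fold change was -0.43 ± 0.14 (adjusted p = 0.00613) and, relative to the human pool, -0.025 ± 0.059 (adjusted p = 0.743). Without shControl 1A the spike-in call of DTX3L was lost (adjusted p = 0.08). PARP9 had 2043, 1917 and 1718 against 1740.1, 1415 and 1666, with -0.24 ± 0.15 (adjusted p = 0.141) and 0.17 ± 0.053 (adjusted p = 0.0196). The TMM call of PARP9 was lost without shControl 1B (adjusted p = 0.0906) and without shDYRK1A 1C (adjusted p = 0.0755), and its spike-in value passed without shControl 1C (adjusted p = 0.0386). The exons of the pair overlap by 217 bases on opposite strands.

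The 2 sensors of viral RNA that were tested did not pass on the spike-in scale, where 63.4% of all genes fell. Both rose relative to the human pool, beside 27.3% of all genes. DDX58, the gene of RIG-I, had 736, 663 and 616 in the shControl libraries and 735, 559 and 748 in the shDYRK1A libraries, with log2 fold changes of 0.020 ± 0.16 (adjusted p = 0.914) and 0.42 ± 0.082 (adjusted p = 0.00117) on the spike-in and TMM scales. IFIH1, the gene of MDA5, which binds long double-stranded RNA, had 1333, 1262 and 1149.8 against 1323, 1099 and 1328, with 0.0026 ± 0.15 (adjusted p = 0.988) and 0.40 ± 0.062 (adjusted p = 2.08e-04). In both genes shDYRK1A 1B was the lowest library of all 6.

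Of the membrane proteins, among them those that act on viral entry or release, the 4 that were tested rose relative to the human pool. None of the 4 passed on the spike-in scale, where 63.4% of all genes fell. Relative to the pool 27.3% of all genes rose. IFITM3, which hinders fusion of viral envelopes in endosomes, had the highest level of all 39 at 284 CPM per kilobase of exon in shControl, where CPM is a gene's reads scaled to the library's total of human gene counts. Its normalized counts were 18600.5, 17689 and 15807 in the shControl libraries and 17503, 18027 and 16361 in the shDYRK1A libraries, with log2 fold changes of -0.0056 ± 0.13 (adjusted p = 0.97) on the spike-in scale and 0.41 ± 0.074 (adjusted p = 6.90e-04) on the TMM scale. A gene of the opposite strand covers 21.3% of its exon length. IFITM2 had 2109.7, 2202 and 1697 against 2086, 2076 and 1919, with 0.018 ± 0.14 (adjusted p = 0.915) and 0.43 ± 0.073 (adjusted p = 4.17e-04). The IFITM genes are close copies of each other in a row on chromosome 11, so reads may be split between them by the counting, and 22.8% of the exonic bases of IFITM2 and 32.5% of those of IFITM1 are shared. BST2, the tetherin that holds budding virus at the cell surface, had 9751, 8468 and 7959 against 8595, 8581 and 7684, with -0.074 ± 0.13 (adjusted p = 0.619) and 0.34 ± 0.077 (adjusted p = 0.00319). IFI6, a mitochondrial and endoplasmic reticulum protein, had 1669, 1679.5 and 1302 against 1557, 1639 and 1694, with 0.073 ± 0.15 (adjusted p = 0.661) and 0.49 ± 0.082 (adjusted p = 3.96e-04). The groups of all 4 overlapped on the spike-in scale.

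**Figure D2:**
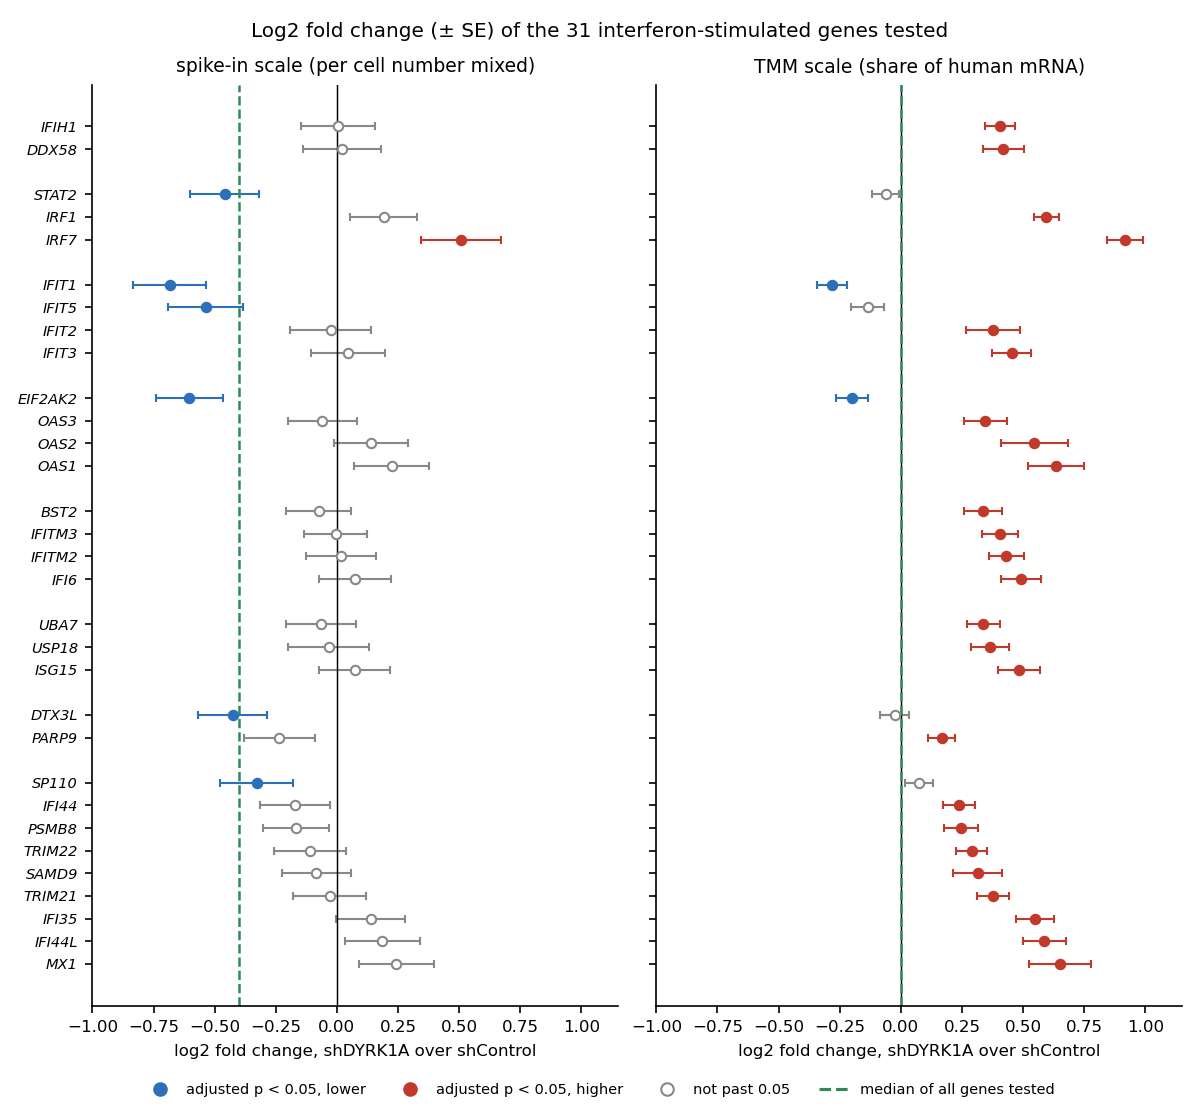
Log2 fold change of shDYRK1A over shControl (x axis) with its SE for the 31 members tested, grouped by role, on the spike-in scale (left) and the TMM scale (right). Filled points passed an adjusted p of 0.05 and the dashed line marks the median of all 9697 genes, -0.40 on the left and 0.0019 on the right; 26 members lie to the right of it in the left panel.

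The ISG15 system joins the ubiquitin-like protein ISG15 to other proteins (UBA7 is its activating enzyme, HERC5 its main ligase) and removes it again (USP18). No tested gene of the system passed on the spike-in scale, where 63.4% of all genes fell. All 3 rose on the TMM scale, beside 27.3% of all genes. ISG15 had 2011, 2046 and 1762 in the shControl libraries and 2044, 2186 and 1888 in the shDYRK1A libraries, with log2 fold changes of 0.072 ± 0.14 (adjusted p = 0.656) on the spike-in and 0.48 ± 0.087 (adjusted p = 6.51e-04) on the TMM scale. UBA7 had 2173, 2662 and 2087 against 2418, 1999 and 2200.1, with -0.065 ± 0.14 (adjusted p = 0.688) and 0.34 ± 0.067 (adjusted p = 0.00133). USP18, which also dampens signalling at IFNAR2, had 443, 468 and 419 against 461, 402 and 435, with -0.034 ± 0.17 (adjusted p = 0.864) and 0.37 ± 0.078 (adjusted p = 0.00193). The groups overlapped in each. USP18 has a near copy in the genome, and how its reads were assigned is uncertain.

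Among the remaining effectors, 1 of 9 tested genes fell on the spike-in scale, where 63.4% of all genes fell. On the TMM scale 8 of the 9 rose, beside 27.3% of all genes. SP110, a nuclear body protein, had 1712, 1584 and 1456 in the shControl libraries and 1339, 1151 and 1295 in the shDYRK1A libraries, without overlap, with -0.33 ± 0.15 (adjusted p = 0.0448) on the spike-in scale and 0.075 ± 0.057 (adjusted p = 0.284) on the TMM scale. Its call did not hold without shControl 1A, shControl 1B, shDYRK1A 1B or shDYRK1A 1C (adjusted p of 0.221, 0.119, 0.136 and 0.13) nor with the wider filter (adjusted p = 0.0528), and 20.9% of its exonic bases lie opposite another gene. MX1, a dynamin-like GTPase that blocks influenza virus, had 1154, 962 and 927 in the shControl libraries and 1096, 1016 and 1485 in the shDYRK1A libraries. Library shDYRK1A 1C stood above the rest and the groups overlapped. The fold changes of MX1 were 0.24 ± 0.15 (adjusted p = 0.145) and 0.65 ± 0.13 (adjusted p = 0.00122), and without shDYRK1A 1B the TMM call was lost (adjusted p = 0.0667). IFI44L had 1003, 884 and 844 against 1046, 877 and 1178, with 0.18 ± 0.15 (adjusted p = 0.274) and 0.59 ± 0.088 (adjusted p = 1.88e-04). Its neighbour IFI44, which starts 3650 bases further on chromosome 1, had 2751, 2460.2 and 2103 against 2215, 1936 and 2340.1, with -0.17 ± 0.14 (adjusted p = 0.274) and 0.24 ± 0.066 (adjusted p = 0.00911). IFI44L was thus above and IFI44 below the shControl mean on the spike-in scale, and neither passed.

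TRIM21, the cytosolic antibody receptor, had 1595, 1403 and 1180 against 1499, 1293 and 1298, with -0.029 ± 0.15 (adjusted p = 0.866) on the spike-in scale and 0.38 ± 0.065 (adjusted p = 4.91e-04) on the TMM scale. TRIM22 had 1849, 1766 and 1584 against 1745, 1338 and 1735, with -0.11 ± 0.15 (adjusted p = 0.503) and 0.29 ± 0.065 (adjusted p = 0.00261), and another gene of that strand covers 10.7% of its exon length. PSMB8, a subunit of the immunoproteasome, had 6121, 5697 and 4962 against 4979, 5084 and 4881, with -0.17 ± 0.14 (adjusted p = 0.265) and 0.25 ± 0.068 (adjusted p = 0.00916), and 20.6% of its exonic bases lie opposite other genes. These 3 overlapped between groups. IFI35 had 2380, 2272 and 1990.1 against 2419, 2533 and 2353, with 0.14 ± 0.14 (adjusted p = 0.383) and 0.55 ± 0.077 (adjusted p = 1.15e-04). SAMD9, a restriction factor of poxviruses, had 3282, 3072 and 2775 against 3035, 2162 and 3412, with -0.084 ± 0.14 (adjusted p = 0.596) and 0.31 ± 0.10 (adjusted p = 0.0212). Library shDYRK1A 1B was low for SAMD9 beside the other shDYRK1A libraries. Its TMM call was lost without shControl 1A, without shControl 1B and without shDYRK1A 1C, at adjusted p of 0.0502, 0.0601 and 0.0637.

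By overlap of the libraries alone, 6 of the 31 members had all shDYRK1A libraries below all shControl libraries, 1 had them above and 24 overlapped. Across all genes tested 63.6% were below and 1.59% above. The 24 members that did not pass on the spike-in scale had log2 fold changes between -0.24 and 0.24 there, with SE between 0.13 and 0.17. All 24 rose on the TMM scale by 0.17 to 0.65, where 27.3% of all genes rose. A change of scaling shifts all genes nearly alike, so these rises are not results apart from the spike-in values. The SE on the spike-in scale, with a median of 0.15 over the members, was larger than that on the TMM scale, with a median of 0.073.

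The 39 members together took 0.194%, 0.182% and 0.193% of the human gene counts in the shControl libraries and 0.228%, 0.246% and 0.247% in the shDYRK1A libraries, so that every shDYRK1A library was higher. Their summed normalized counts were 93414, 86977 and 77267 against 83435, 76831 and 82249, which overlapped. IFITM3 and BST2 made up 29.2% to 34.6% of the members' reads in each library.

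**Figure D3:**
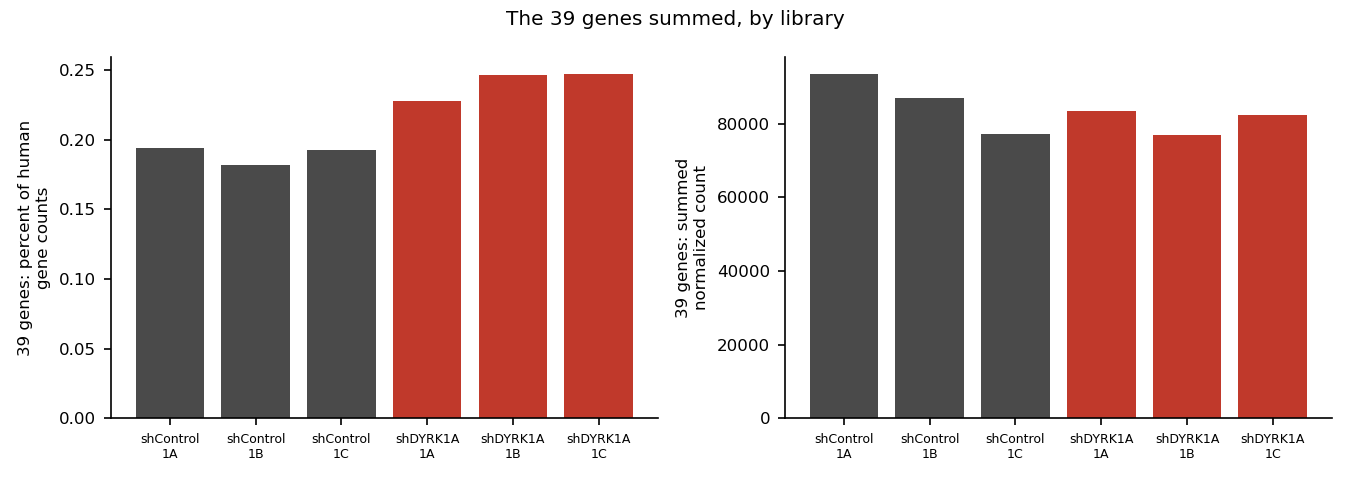
The 39 genes summed in each of the 6 libraries, as percent of human gene counts (left) and as summed normalized count on the spike-in scale (right), both from 0, with shControl in grey and shDYRK1A in red. The left bars run from 0.182% to 0.194% in shControl and from 0.228% to 0.247% in shDYRK1A, and on the right the groups overlap.

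Per kilobase of exon the members covered a wide range of levels. In shControl they ran from 284 CPM per kilobase for IFITM3 to 0.216 for IFI27, a ratio of 1314. After IFITM3 came BST2 at 172, then ISG15 at 45.5, PSMB8 at 41.2 and IFI6 at 39.4. In 22 of the 38 pairs of neighbours in this order the ranges of mean ± SD (n = 3) overlapped, PSMB8 and IFI6 among them, whereas IFITM3, BST2 and ISG15 stood apart from each other. The median coefficient of variation of CPM between the shControl libraries was 5.91%.

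**Figure D4:**
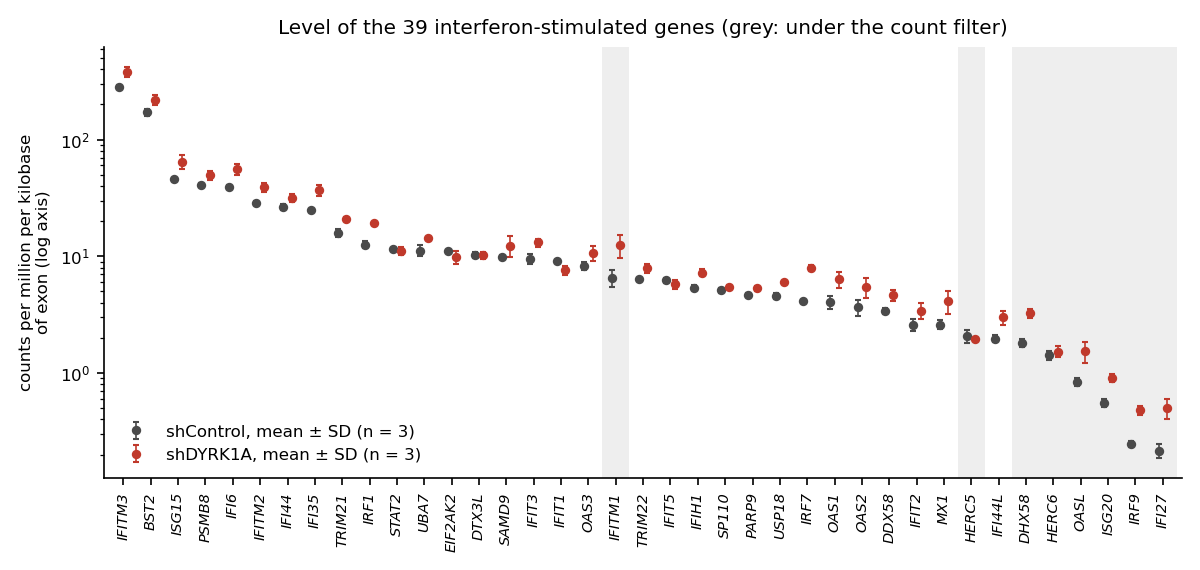
Level of each of the 39 members in CPM per kilobase of exon (log axis), mean ± SD of 3 libraries, in shControl (grey) and shDYRK1A (red), sorted by the shControl level. Grey bands mark the 8 members under the count filter; IFITM3 is highest at 284 and IFI27 lowest at 0.216 in shControl.

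The 8 members under the filter of 10 spike-in-normalized CPM were fitted with a wider filter that kept 17530 genes, of which 44.2% fell and 1.97% rose on the spike-in scale. Of these 8, IFI27, IFITM1 and DHX58 rose and HERC5 fell on the spike-in scale, while IRF9, OASL, HERC6 and ISG20 did not pass. IFI27, the lowest member, had normalized counts of 49.9, 38.6 and 34.1 in the shControl libraries and 60.5, 66.7 and 82.4 in the shDYRK1A libraries. All shDYRK1A libraries were higher, and the log2 fold changes were 0.78 ± 0.28 (adjusted p = 0.0136) and 1.17 ± 0.22 (adjusted p = 4.72e-04) on the spike-in and TMM scales. IFITM1, the cell-surface relative of IFITM3, had 368, 274 and 317 against 363, 489 and 493, with 0.49 ± 0.17 (adjusted p = 0.0117) and 0.87 ± 0.18 (adjusted p = 0.00245). DHX58, which encodes LGP2, a regulator of both RNA sensors above, had 349, 301 and 294 against 424, 432 and 403, with 0.42 ± 0.17 (adjusted p = 0.0364) and 0.79 ± 0.10 (adjusted p = 1.18e-05). HERC5 had 550.3, 437 and 371 against 338, 295 and 314, with -0.52 ± 0.17 (adjusted p = 0.00762) and -0.14 ± 0.100 (adjusted p = 0.297). The groups did not overlap for IFI27, DHX58 and HERC5. These calls depended on single libraries, on the spike-in scale. The adjusted p of IFI27 rose to 0.0613, 0.0505 and 0.121 without shControl 1B, shControl 1C and shDYRK1A 1C. That of IFITM1 rose to 0.124, 0.0542 and 0.125 without shControl 1B, shDYRK1A 1B and shDYRK1A 1C. That of HERC5 rose to 0.188 without shControl 1A and 0.057 without shDYRK1A 1C. DHX58 did not pass when any of the 6 libraries was left out, at adjusted p from 0.0504 to 0.137.

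IRF9, the DNA-binding partner of STAT2, had 47.5, 42.0 and 38.0 against 70.0, 51.0 and 64.2, with 0.54 ± 0.28 (adjusted p = 0.0996) and 0.91 ± 0.20 (adjusted p = 0.00165), and another gene of that strand covers 48.4% of its exon length. OASL had 147, 128 and 126 against 196, 134 and 219, with 0.46 ± 0.20 (adjusted p = 0.0547) and 0.82 ± 0.15 (adjusted p = 3.67e-04), and its spike-in value passed without shDYRK1A 1B (adjusted p = 0.0158). ISG20, an exonuclease, had 192, 212 and 152 against 222, 220.5 and 229, with 0.27 ± 0.19 (adjusted p = 0.236) and 0.66 ± 0.12 (adjusted p = 3.50e-04). HERC6 had 432, 376 and 314 against 294, 310.4 and 287, with -0.33 ± 0.17 (adjusted p = 0.108) and 0.054 ± 0.11 (adjusted p = 0.728), and it passed on the spike-in scale without shControl 1C (adjusted p = 0.0245).

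Upstream of these genes lie the interferons, their receptors and the relay to the nucleus. The interferon genes that were looked up were near the limit of detection. Of these 9 ligand genes 6 had no read in any library, and the highest was IFNE with at most 33 reads. IFNA1 was the only alpha interferon among them, and the other alpha interferon genes were not looked up. IFNB1, the interferon that non-immune cells make first, had 0, 2 and 0 reads in shControl and 3, 0 and 1 in shDYRK1A. All 5 receptor genes tested fell on the spike-in scale, as did the receptor kinase JAK1, where 63.4% of all genes fell, and the receptors' median of -0.38 was close to the -0.40 of all genes. IFNAR1 had 4154, 3825 and 3093 in the shControl libraries and 2697, 2139 and 2542 in the shDYRK1A libraries, with -0.59 ± 0.14 (adjusted p = 1.46e-04) on the spike-in scale and -0.18 ± 0.055 (adjusted p = 0.0159) on the TMM scale. IFNAR2 had 1749, 1786 and 1489.6 against 1244, 927 and 1162, with -0.59 ± 0.15 (adjusted p = 3.13e-04) and -0.19 ± 0.060 (adjusted p = 0.0172). IFNAR1 and IFNAR2, the subunits of the type I receptor, thus fell on both scales. Another gene of that strand covers 44.2% of the exon length of IFNAR2, and a gene of the opposite strand 39.1%. IFNGR1 and IFNGR2, the receptor of interferon gamma, had -0.35 ± 0.14 (adjusted p = 0.0234) and -0.38 ± 0.14 (adjusted p = 0.0124) on the spike-in scale, and IL10RB, shared with the type III receptor, -0.33 ± 0.14 (adjusted p = 0.0352). Another gene of that strand covers 38.1% of the exon length of IL10RB. JAK1 had -0.36 ± 0.13 (adjusted p = 0.0125), TYK2 -0.29 ± 0.14 (adjusted p = 0.0588) and STAT3 0.084 ± 0.13 (adjusted p = 0.576). Relative to the human pool STAT3 rose, at 0.48 ± 0.045 (adjusted p = 5.26e-06), and the values of JAK1, TYK2, IFNGR1, IFNGR2 and IL10RB lay between 0.021 and 0.11 without passing. IFNLR1 and JAK2 were under the filter, with log2 fold changes of 0.096 ± 0.41 (adjusted p = 0.864) and -0.29 ± 0.17 (adjusted p = 0.16) in the wider fit. When libraries were left out, the call of IFNGR1, IL10RB and JAK1 did not hold without shControl 1A, shControl 1B, shDYRK1A 1B or shDYRK1A 1C, and that of IFNGR2 without shControl 1A, shControl 1B or shDYRK1A 1C, while TYK2 passed without shControl 1C or shDYRK1A 1A.

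Of the 27 tested genes of the whole pathway list (receptors, relay, negative regulators, sensing of nucleic acid and interferon regulatory factors, 45 listed), 15 fell and 0 rose on the spike-in scale by edgeR, beside 63.4% and 1.08% of all genes. No gene of the 27 had a positive value at an unadjusted p below 0.05 there, and DESeq2 also gave 0. The list's median was -0.33, beside -0.40 for all genes. On the TMM scale 4 fell and 8 rose, beside 28.6% and 27.3% of all genes, with a median of 0.077. The count of 15 was 5 without shControl 1A, 6 without shControl 1B, 20 without shControl 1C, 6 without shDYRK1A 1B and 6 without shDYRK1A 1C.

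A further 53 interferon-stimulated genes outside the list of 39 gave 41 that were tested, of which 14 fell and 3 rose on the spike-in scale and 5 fell and 20 rose on the TMM scale. Of all genes 63.4% fell and 1.08% rose on the first scale, and 28.6% fell and 27.3% rose on the second. The medians of the 41 were -0.24 and 0.17. The 5 lowest were PARP12, at -0.81 ± 0.15 (adjusted p = 8.07e-07) on the spike-in scale, then PNPT1 (-0.68), UBE2L6, the conjugating enzyme of ISG15 (-0.68), the DNA sensor IFI16 (-0.61) and RNF213 (-0.57). All 5 fell on both scales. The 5 highest were TNFSF10, the death ligand TRAIL, and the guanylate-binding proteins GBP4, GBP2, GBP3 and GBP1. TNFSF10 had 841, 873 and 751 in the shControl libraries and 1316, 1217 and 1365 in the shDYRK1A libraries, with 0.66 ± 0.15 (adjusted p = 7.98e-05) on the spike-in scale and 1.07 ± 0.067 (adjusted p = 2.80e-07) on the TMM scale. GBP4 had 1874, 1693 and 1628 against 2618, 2029 and 2537, with 0.47 ± 0.14 (adjusted p = 0.00286) and 0.87 ± 0.065 (adjusted p = 1.09e-06). GBP2 had 4412, 4419 and 3919.8 against 5960.5, 5106 and 5794, with 0.40 ± 0.14 (adjusted p = 0.00697) and 0.81 ± 0.045 (adjusted p = 1.57e-07). In TNFSF10, GBP4 and GBP2 all shDYRK1A libraries were above all shControl libraries. GBP3 and GBP1 had 0.20 ± 0.15 (adjusted p = 0.233) and 0.15 ± 0.14 (adjusted p = 0.347) on the spike-in scale and rose on the TMM scale. The count of 14 was 7 without shControl 1A, 9 without shControl 1B, 23 without shControl 1C and 8 without shDYRK1A 1B, and that of 3 was 1 without shDYRK1A 1C, when GBP2 and GBP4 did not pass (adjusted p = 0.0675 and 0.0513).

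**Figure D5:**
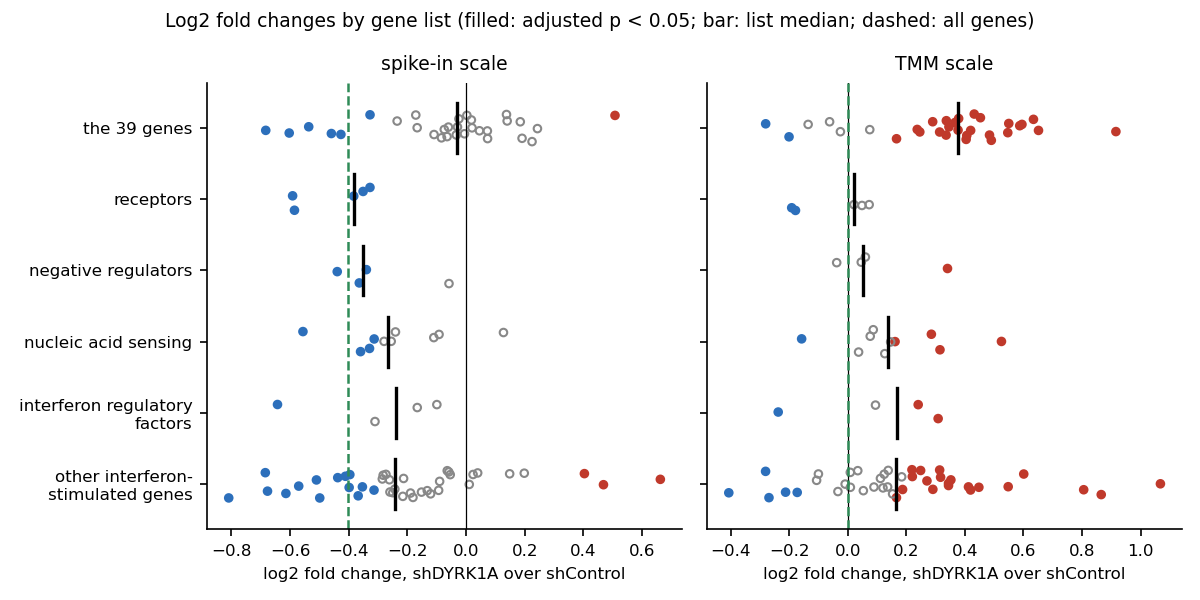
Log2 fold change of shDYRK1A over shControl (x axis) for the tested genes of the list of 39, of 4 pathway roles and of the further interferon-stimulated genes, on the spike-in scale (left) and the TMM scale (right). Points are genes, filled where the adjusted p is below 0.05, black bars are list medians and the dashed line is the median of all genes tested; the bar of the list of 39 is at -0.030 on the left and that of the receptors at -0.38.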

How the data were processed

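RNA of T98G cells (6 libraries) was sequenced by the authors as stranded mRNA libraries, paired-end, and the submitters' processing notes name STAR, DESeq2 and the builds hg38 and dm3. The deposited files hold raw counts per human gene, which the authors made with one table per library, and one table of normalized values (unit signal), in which the authors divided the counts by a constant per library from the fly reads. Those constants were recovered as the ratio of raw to normalized value. Whether counting used strand, and which annotation, is not given in the sources used here; 95.7% of the genes had coordinates equal to GENCODE release 29. Lines for unassigned reads (18.9% to 25.0% of reads) were left out. The fly counts were not analysed here. 0 columns of values matched no sample.

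Genes with a mean above 10 spike-in-normalized CPM (9697) were tested with edgeR 4.0.16 (quasi-likelihood test, robust, R 4.3.3), with the spike-in constants or with TMM, and p-values were adjusted by Benjamini-Hochberg over all genes tested. Called means an adjusted p below 0.05. filterByExpr (17530 genes) served for members under the filter. The SE was taken as |log2 fold change| over root F. Alternatives were DESeq2 1.42.0, median-of-ratios scaling, other filters, the letter block and leaving out each library. The script was tested on simulated data. The members and lists were chosen with earlier results of these data known. Every member is named, with counts per library where it passed on either scale and for the highest and lowest level; of the pathway list receptors and relay genes, and of the further genes the 5 highest and 5 lowest fold changes, are named. Some listed genes are not reported here by name. Groups of 3 libraries cannot show an outlier by the rule used.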

Additional observations from a re-analysis of the deposited data

How the results depend on the processing

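Scaling moved 14 of the 39 members from below 0 to above 0 and changed many calls. With TMM in place of the spike-in constants, 2 members fell and 25 rose, 4 pathway genes fell and 8 rose, 5 further interferon-stimulated genes fell and 20 rose, and the members' median was 0.38. Median-of-ratios scaling gave the same 6 counts, 2, 25, 4, 8, 5 and 20, and a median of 0.38. Values below 0 on the spike-in scale that lay above 0 with TMM were IFIT2 0.38, OAS3 0.35, IFITM3 0.41, BST2 0.34, UBA7 0.34, HERC6 0.054, USP18 0.37, PARP9 0.17, IFI44 0.24, TRIM21 0.38, TRIM22 0.29, SAMD9 0.31, SP110 0.075, PSMB8 0.25, IFNGR1 0.049, IFNGR2 0.021, IL10RB 0.073, JAK1 0.036, JAK2 0.079, TYK2 0.11. With median-of-ratios scaling they were IFIT2 0.38, OAS3 0.35, IFITM3 0.41, BST2 0.34, UBA7 0.34, HERC6 0.057, USP18 0.37, PARP9 0.17, IFI44 0.24, TRIM21 0.38, TRIM22 0.29, SAMD9 0.32, SP110 0.078, PSMB8 0.25, IFNGR1 0.052, IFNGR2 0.024, IL10RB 0.076, JAK1 0.039, JAK2 0.082, TYK2 0.11. The distance of the members' median from that of all genes kept its sign under every alternative run (0.35 to 0.41). A change of scaling shifts all genes nearly alike, so the scaling alternatives could not alter this distance and do not test it. With a log2 fold change beyond 0.7 also asked for, 0 members fell and 0 rose, 0 pathway genes fell, 1 further gene fell and 0 rose, and on the TMM scale 0 members fell and 1 rose. The wider filter and no filter beyond 1 count each gave 4 members and 6 further genes higher, because members under the first filter were then tested. With the wider filter the TMM calls of PARP9 (adjusted p = 0.0716) and SAMD9 (0.071) were lost, and with no filter those of OAS2 (0.0829), PARP9 (0.0839) and SAMD9 (0.129), while SP110 had an adjusted p of 0.0628 on the spike-in scale. DESeq2's Wald test kept every member's call. The libraries' letters were shared by both groups, and deviations of the same letter correlated at 0.15, 0.073 and 0.13 for 1A, 1B and 1C. Those of different letters correlated at -0.094 to -0.014, so each library correlated best with its own letter. Not every same-letter pair was over 0.1, the cut-off used, and the letters were not taken as pairing. A shared batch by letter is thus not excluded. With the letter as a replicate block 5 members fell and 1 rose on the spike-in scale, SP110 not passing (adjusted p = 0.0642), and IFIH1 had -2e-04. With each library left out in turn the members that fell numbered 4 to 7 and those that rose 1, the pathway genes that fell 5 to 20, the further genes that fell 7 to 23 and rose 1 to 3, and on the TMM scale 1 to 2 members fell and 22 to 25 rose. The ranges of log2 fold changes that then changed sign were DDX58 -0.054 to 0.14, IFIH1 -0.053 to 0.087, IFIT2 -0.13 to 0.12, IFIT3 -0.041 to 0.17, OAS2 -0.026 to 0.29, OAS3 -0.18 to 0.041, IFITM2 -0.089 to 0.091, IFITM3 -0.069 to 0.047, BST2 -0.14 to 0.013, IFI6 -0.039 to 0.13, UBA7 -0.14 to 0.050, USP18 -0.081 to 0.016, TRIM21 -0.14 to 0.079, TRIM22 -0.17 to 0.0061, SAMD9 -0.23 to 0.084, IFNLR1 -0.23 to 0.38, STAT3 -0.0092 to 0.18. The cause of these changes was not tested. The 8 members under the filter had at most 599 reads in a library, and of them IFI27 and IRF9, with the fewest reads, had the largest SE, 0.28 each.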

Other observations

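Some interferon-stimulated genes with few reads moved further than any member. Of the 8 further genes under the filter that the wider fit held, 3 rose and 0 fell on the spike-in scale, beside 1.97% and 44.2% of the 17530 genes of that fit. They are named here because their values stood out. CXCL10, a chemokine that draws T cells, had normalized counts of 32.9, 19.3 and 26.3 in the shControl libraries and 126, 88.0 and 107 in the shDYRK1A libraries, with a log2 fold change of 2.03 ± 0.28 (adjusted p = 2.19e-11) on the spike-in scale. CXCL11, a related chemokine with the same receptor, had 8.52, 4.54 and 6.82 against 34.0, 20.4 and 25.5, with 1.99 ± 0.47 (adjusted p = 1.40e-04). The groups did not overlap in CXCL10 and CXCL11. Both calls held with each library left out in turn, an alternative added after the data were seen (highest adjusted p = 4.45e-07 and 0.00481). No shControl library held more than 7 raw reads of CXCL11, while every shDYRK1A library held at least 22. The shDYRK1A libraries alone may thus have carried CXCL11 past the wider filter. Its place among the 3 that rose may partly follow from the filter, and its adjusted p does not allow for this. RSAD2, the gene of the antiviral enzyme viperin, had 30.4, 29.5 and 25.3 against 47.3, 42.6 and 72.5, with 0.94 ± 0.31 (adjusted p = 0.00758), and did not pass without shDYRK1A 1C (adjusted p = 0.156). CMPK2, which lies beside RSAD2, had 86.4, 79.4 and 78.9 against 83.2, 101 and 136, with 0.39 ± 0.23 (adjusted p = 0.156). By edgeR the wider fit thus called no gene of these 8 lower on the spike-in scale, 0 were lower at an unadjusted p below 0.05, and the lowest value was that of EPSTI1 at -0.22 ± 0.18 (adjusted p = 0.311).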
